A study of Mus musculus with 8 samples.

Results

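The cytosolic ribosomal protein genes encode the protein part of the ribosome that translates nuclear mRNA. They were taken as all genes whose symbol is Rpl or Rps, a number, at most 1 of the letters a, x, y and l and at times a further number, so that Rpl36al is outside, together with Rplp0, Rplp1, Rplp2 and Rpsa, without the Rps6k kinases and named pseudogenes. In total, 84 of the 26586 genes listed met this rule, 33 for the small 40S subunit and 51 for the large 60S subunit. The RNA came from primordial follicles that were taken at postnatal day 3 out of the ovaries of C57Bl/6 x CBA mice. The mito-supplemented group comprised 4 libraries from the third generation of offspring descended from oocytes that received additional autologous mitochondria at fertilisation, and the control group comprised 4 libraries from control mice. The study asked whether supplementation altered gene expression in these follicles generations later. Each library was made from the pooled follicles of an ovary after amplification of the cDNA and removal of rRNA, and the groups rest on the sample labels, so that every direction given here would turn if these were swapped. A further control library was set aside by the study and was not analysed here. The labels call the libraries biological replicates but do not say which animals they share. The label codes of control replicates 1 and 2, of control replicates 3 and 4 and of mito-supplemented replicates 1 to 3 begin alike, with no meaning given, so that these libraries may not be independent and the p values given measure the spread between libraries.

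A ribosome holds a copy of nearly every ribosomal protein, and the genes encoding them are transcribed at high and coordinated levels in all growing cells. Their mRNAs carry a run of pyrimidines at the 5' end, the TOP motif, through which mTORC1 and LARP1 adjust their translation to nutrients. Oocytes accumulate ribosomes during growth as a store for the embryo, whereas the oocyte of a primordial follicle is dormant and is enclosed by flat pregranulosa cells.

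Total counts were 17658559, 13917412, 18219362 and 10370045 in control replicates 1, 2, 3 and 4, respectively, while the same order in the mito-supplemented group gave 19760763, 13370911, 16116434 and 13276462. Of these, between 63355 counts in control replicate 4 and 294173 counts in mito-supplemented replicate 1 fell on ribosomal protein genes. The median tested member had 644 counts in control replicate 4 and between 1253 and 2967 in the other libraries. In control replicate 4, 75.3% of the counts lay on the rRNA genes Rnr1, Rnr2, Rn45s and Rn18s, against 20.1% to 45.6% in the other 7 libraries.

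The cell type markers were examined before the ribosomal genes, since the isolates could hold other ovarian cells. The 20 oocyte markers, of which Tdrd1 was the most abundant, summed to 4394, 253, 238 and 948 CPM (counts scaled to the normalized size of the library) across controls 1 to 4, and to 459, 281, 1000 and 152 CPM across mito-supplemented libraries 1 to 4. Control replicate 1 therefore had by far the highest oocyte marker level. Oosp1 was at 0 in control replicates 2, 3 and 4 and mito-supplemented replicates 1, 2 and 4, and Syce3 was at 0 in control replicate 4 and mito-supplemented replicate 4. The 13 erythroid markers found, led by Spna1, summed to 11035, 7229 and 10127 CPM in control replicates 2 and 3 and mito-supplemented replicate 1, and to between 61.2 and 193 CPM in the other 5 libraries. The red cell genes thus marked 3 libraries, of which 2 were controls.

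Reads from ribosomal protein genes made up 1.96%, 2.24%, 2.62% and 2.47% of the counts outside the 4 rRNA genes in control replicates 1 to 4. In mito-supplemented replicates 1 to 4 they made up 1.86%, 1.66%, 2.22% and 2.79%. Both the lowest and the highest share were found in mito-supplemented libraries, and the groups overlapped. This gave a mean of 2.32% ± 0.29 among controls versus 2.13% ± 0.49 in the mito-supplemented group (n = 4 per group, SD), and the difference of -0.19 percentage points was smaller than either SD. It moved to -0.408 without mito-supplemented replicate 4 and to -0.032 without mito-supplemented replicate 2. The widest 95% Wilson interval of a single library was 2.46% to 2.49%, in control replicate 4. Such an interval covers counting error only, and is too narrow even for that, because amplified reads are not independent molecules. As a share of all counts the difference was 0.095 percentage points, and without the 3 libraries high in erythroid markers it was 0.008, so that its direction was not stable. In bulk samples, fewer cells of a type and less RNA per cell cannot be told apart. On the scale of trimmed mean normalized CPM, the members summed to 14530, 16197 and 14274 CPM in the 3 libraries high in erythroid markers. In the other 5 libraries they summed to between 8374 and 14429 CPM. The part of the blood cells in these levels was not tested.

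**Figure D1:**
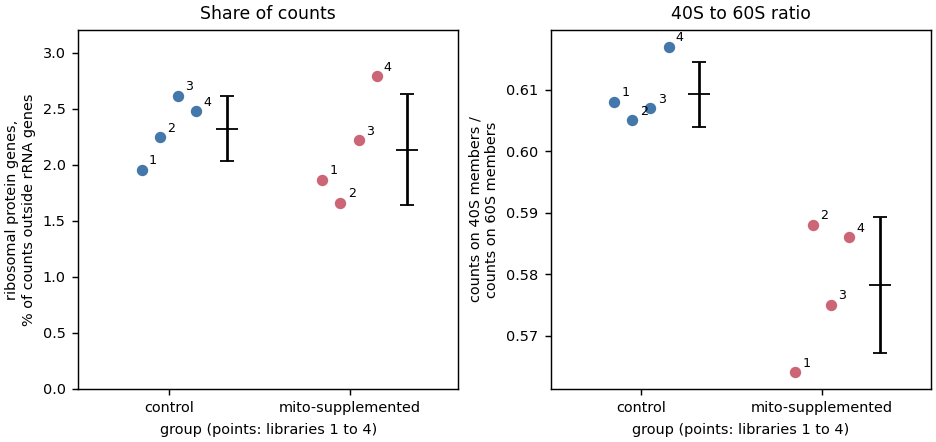
The left plot gives the counts on ribosomal protein genes as a percentage of counts outside the rRNA genes in each library, and the right plot the ratio of counts on 40S to counts on 60S members. Points are libraries and bars the mean and SD of 4 libraries. The shares lay at 1.96% to 2.62% in controls and at 1.66% to 2.79% in mito-supplemented samples, with overlap. The ratios lay at 0.605 to 0.617 in controls and 0.564 to 0.588 in mito-supplemented samples.

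The sequences at the starts of the genes were examined for the TOP motif and for promoter elements. RefSeq starts on GRCm38.p6 were matched for 63 of the 84 members, with 250 bases before and 50 after each start. A run of at least 8 C or T bases touching the 20 bases on either side of the start was present in 33 of the 63 (52.4%), against 23.7% of 27025 genes. CGGAAGT, the core bound by ETS factors, was found on either strand in 21 members (33.3%) and in 7.2% of all genes. AAGATGG, the core of the YY1 motif, was found on either strand in 10 members (15.9%) and in 7.28% of all genes. TATAAA, the TATA box, was found in 6 members (9.52%) and in 9.77% of all genes. A match describes the letters and does not show a binding site. The windows given here run from 60 bases before to 20 after the start on GRCm38.p6, credited to RefSeq, with the longest pyrimidine run at the start in capitals. They are examples of members above the median level of those tested and of paralogues below it. Run length was not compared with level over all members. Of the windows given, that of Rplp0 had a run of 7 bases and that of the paralogue Rpl22l1 a run of 10.
Rpl4 (chr9:64173327-64173406, plus strand): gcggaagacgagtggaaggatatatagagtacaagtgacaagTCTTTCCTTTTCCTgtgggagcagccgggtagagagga
Rpl35 (chr2:39005112-39005191, minus strand): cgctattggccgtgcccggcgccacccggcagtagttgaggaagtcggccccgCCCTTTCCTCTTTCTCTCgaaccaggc
Rps6 (chr4:86857348-86857427, minus strand): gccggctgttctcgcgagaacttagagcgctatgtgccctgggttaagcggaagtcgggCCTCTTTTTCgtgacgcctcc
Rps27 (chr3:90213629-90213708, minus strand): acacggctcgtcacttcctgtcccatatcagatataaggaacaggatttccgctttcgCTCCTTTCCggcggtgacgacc
Rplp0 (chr5:115559407-115559486, plus strand): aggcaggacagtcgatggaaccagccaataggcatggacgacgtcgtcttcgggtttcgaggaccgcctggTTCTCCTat
Rpl22l1 (chr3:28805448-28805527, plus strand): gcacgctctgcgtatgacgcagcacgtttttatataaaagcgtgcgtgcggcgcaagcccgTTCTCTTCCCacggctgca
Rpl10l (chr12:66284382-66284461, minus strand): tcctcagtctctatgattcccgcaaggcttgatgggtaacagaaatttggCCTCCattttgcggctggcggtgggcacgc
Rpl7l1 (chr17:46782637-46782716, minus strand): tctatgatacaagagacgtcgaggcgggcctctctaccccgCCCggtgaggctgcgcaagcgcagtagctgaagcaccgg
Rpl35 had the longest run of these, with 18 bases, and Rpl7l1 the shortest, with 3.

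Levels were compared as mean CPM per kilobase of exon, where the length joins the exons of all annotated transcripts of a gene. The order of the members therefore depends in part on how many exons are annotated. Rps24, at 375 CPM over 6256 bases, came to 59.9 CPM per kilobase, whereas Rps29 had 197 CPM over 693 bases. The level of the 81 members tested ranged 168-fold, with a median of 66.4 CPM per kilobase and quartiles of 34.7 and 114. Rpl4, whose protein lines the tunnel through which the new peptide leaves, had the highest level, at 487 CPM per kilobase. It was followed by Rplp1 of the P stalk at 409.5 and by Rps29, a small zinc-binding protein of the 40S subunit, at 284 CPM per kilobase. The lowest tested levels were 2.91 for Rpl10l, 3.33 for Rpl7l1 and 11.7 CPM per kilobase for Rps4y2, all paralogues of a more abundant member. Rps4y2 is the older symbol of Rps4l, which GENCODE M21 annotates as a transcribed processed pseudogene (chromosome 6 of GRCm38, 148354656 to 148355598, plus strand). The 10 members with the most counts held 32.7% of all member counts.

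Members that share sequence with processed copies are uncertain in level, because the treatment of reads mapping to several places is not given in the sources used here. Over all stretches of 75 bases, the read length, in a member's transcripts, a median of 77.8% were found in no other gene. Transcripts of 79 members shared at least a stretch with an annotated pseudogene, and 14 members had under 50% of stretches to themselves. Rpl36a had the lowest share, with 15.4%, followed by Rpl23a with 18.3% and Rpl13 with 20.4%. The 14 members had a median level of 83.3 CPM per kilobase and a median log2 fold change of -0.16, against 61.8 and -0.19 for the other 67 tested. These differences were not tested. Rpl39 was near absence, with 23, 2, 13 and 2 counts across controls 1 to 4, and 8, 0, 5 and 0 across mito-supplemented libraries 1 to 4, although 92.4% of its stretches were unique.

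**Figure D2:**
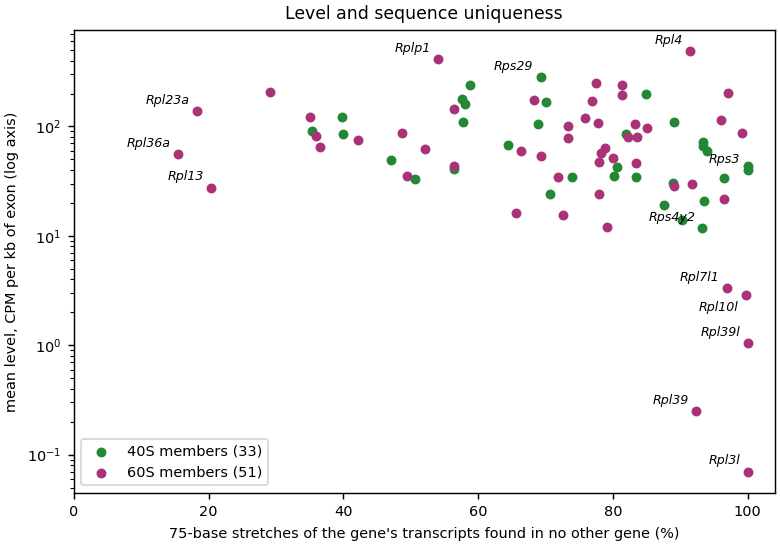
Each point is a member, with the percentage of 75-base stretches of its transcripts found in no other gene on the horizontal axis and its mean level in CPM per kilobase of exon on a log vertical axis. Rpl4 stands at the top with 487, and the 3 members that were not tested, Rpl39, Rpl39l and Rpl3l, stand at the bottom, at 0.249, 1.05 and 0.0699 CPM per kilobase.

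For the comparison of mito-supplemented with control follicles, edgeR's expression filter kept 13873 genes, among them 81 of the 84 members. No member passed an adjusted p value of 0.05 in edgeR's quasi-likelihood test, nor in the likelihood ratio test, DESeq2 or limma-voom, and the lowest adjusted p value of a member was 0.66 in edgeR's quasi-likelihood test. Over all genes, 0% passed an adjusted p value of 0.05 in that test, although 58 genes passed in the likelihood ratio test, 141 in DESeq2 and 0 in limma-voom. Without adjustment, 0 members reached a p value under 0.05 in either direction, against 5.31% of all genes tested that were higher and 2.40% that were lower in mito-supplemented samples. DESeq2 gave 1 member at an unadjusted p value under 0.05 in either direction, Rpl7l1, against 10.8% of all genes. Without the 3 libraries high in erythroid markers, edgeR gave 2, Rpl10l and Rps4y2, again against 10.8% of all genes. The members' shares were thus below those of all genes. The members' spread was narrower than that of other genes, with a median standard error of 0.34 on the log2 scale against 0.65 over all genes tested. The 95% interval of the log2 fold change lay between -1 and 1 in 51 of the 81 members, and 74 had an absolute log2 fold change under 0.5.

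In the quasi-likelihood fit most members lay on the lower side of 0, but their distance from other genes depended on single libraries. The fitted log2 fold change was below 0 in 75 of the 81 members (92.6%), against 55.1% of all genes tested, but with scaling by library size only it was below 0 in 23 of 81. The median was -0.18 for the members, with quartiles of -0.31 and -0.09, and -0.098 for all genes tested. It was -0.18 for the 33 members of the 40S subunit and also for the 48 tested of the 60S subunit. When only library sizes were used, the median of all genes moved to 0.17 and that of the members to 0.12, and the members minus all genes came to -0.081 under the trimmed mean scaling and -0.0565 under library sizes. This difference changed sign to 0.0977 with counts summed by label prefix, where 42 of 83 members were below 0, and to 0.0385 without mito-supplemented replicate 2, where 51 of 81 were, and it was -0.00699 without control replicate 3. Leaving out mito-supplemented replicate 3 gave -0.0186. The difference was larger in other fits, at -0.176 with a replicate block, -0.163 in limma-voom, -0.282 when control replicate 1 was left out, -0.183 when mito-supplemented replicate 4 was and -0.139 when mito-supplemented replicate 1 was. Without mito-supplemented replicate 2 or 3 or control replicate 3 the members' median was -0.054, -0.088 and -0.10, and without mito-supplemented replicate 4 it was -0.28. Without the 3 libraries high in erythroid markers it was -0.062, with -0.008 for all genes. Of the 27 named members fitted, 25 had a log2 fold change that turned or moved by over 1.5 times when a single library was left out, all but Rps6 and Rpl7l1.

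**Figure D3:**
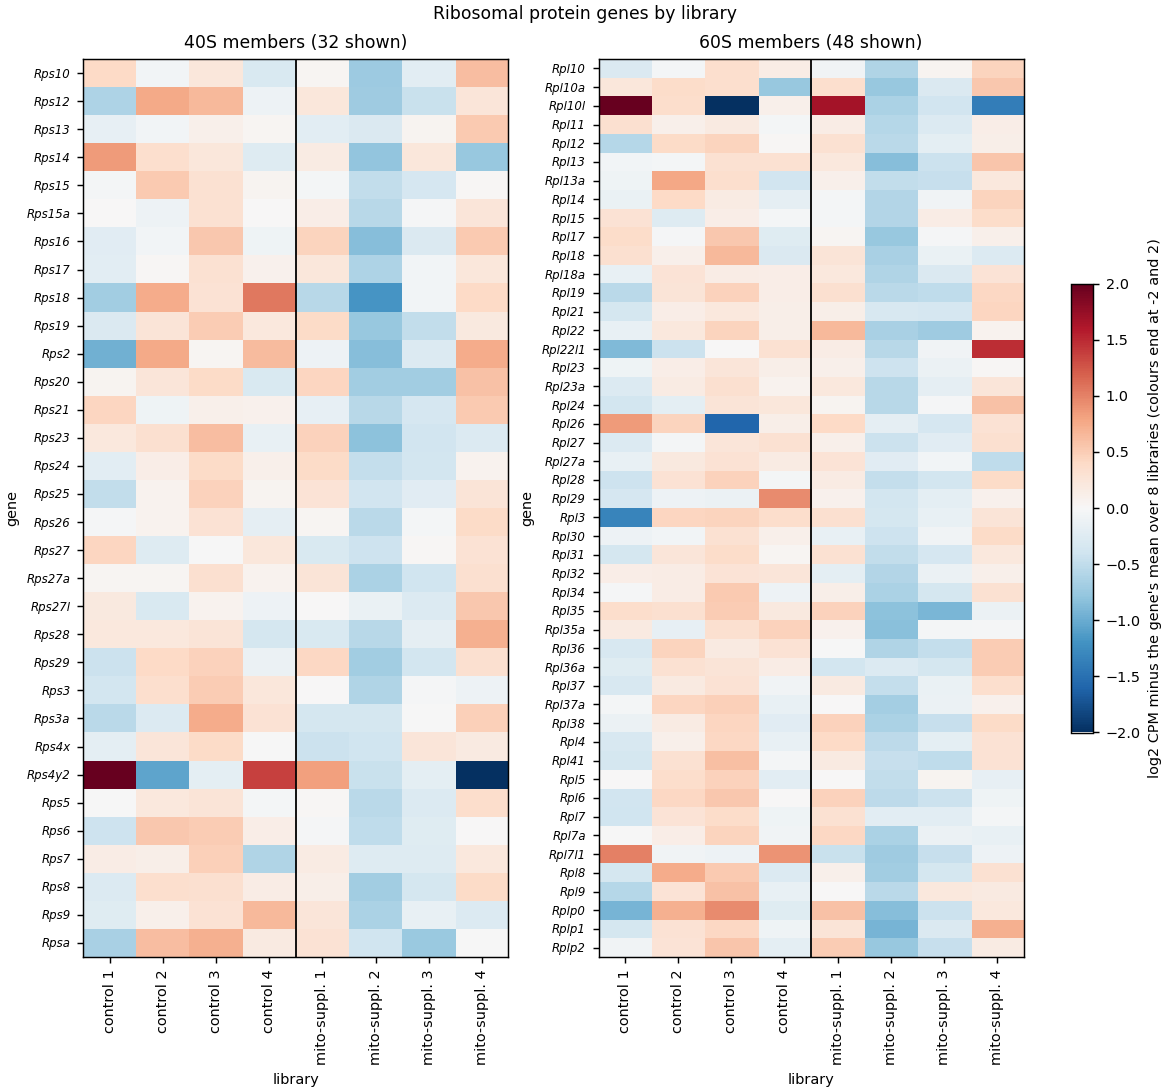
Each line shown is a tested member and each column a library, and the colour gives the log2 CPM minus the gene's mean over the 8 libraries. Control replicate 3 is high and mito-supplemented replicate 2 low over nearly the whole list, and single cells that depart from their column include Rpl3 in control replicate 1 and Rpl26 in control replicate 3.

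**Figure D4:**
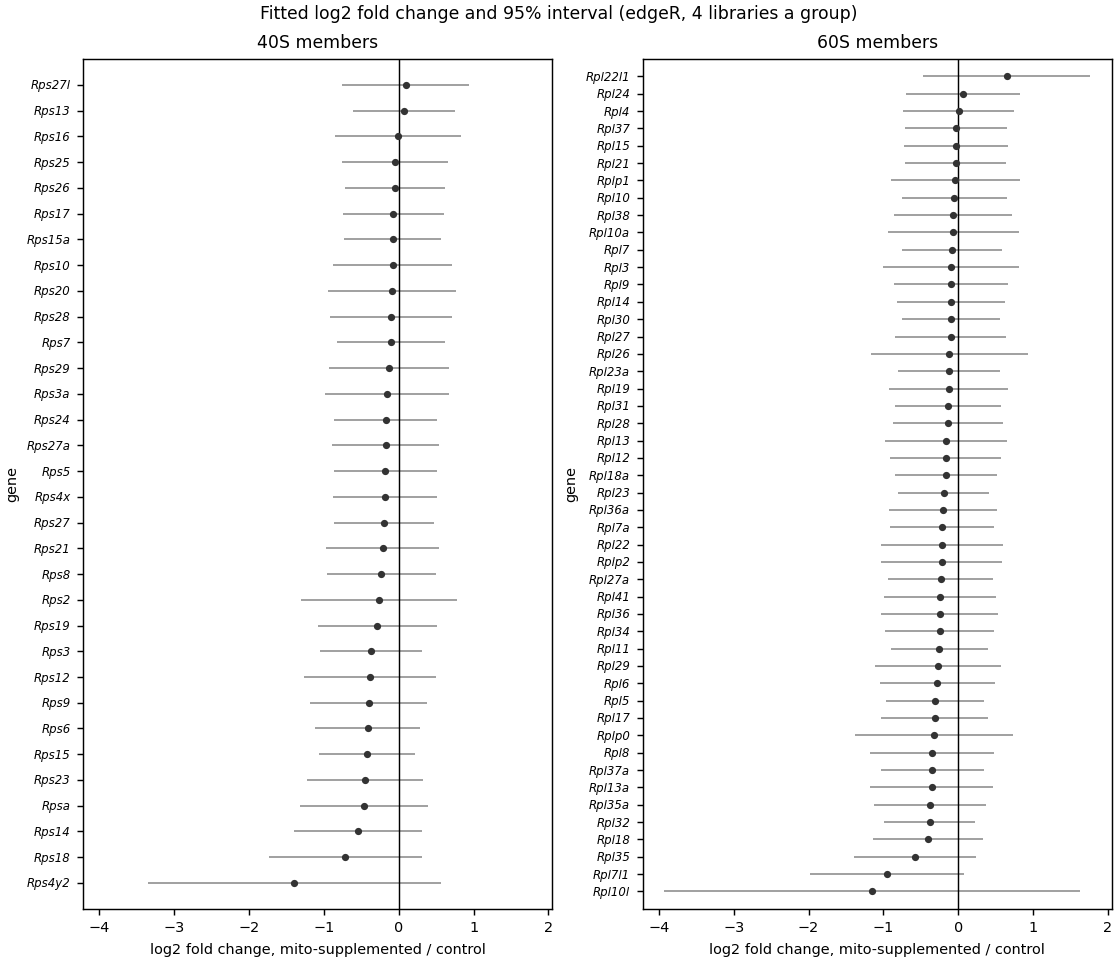
Points give the fitted log2 fold change of mito-supplemented over control samples for the tested members shown and lines its 95% interval, from edgeR with 4 libraries a group. Every interval shown holds 0, and the widest is that of Rpl10l, from -3.93 to 1.62.

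The P stalk is the flexible arm of the 60S subunit to which elongation factors bind. Rplp0, its base, had 84.5, 266, 312 and 136 CPM across controls 1 to 4, and 241, 89.5, 120.5 and 186 CPM across mito-supplemented libraries 1 to 4. Its 3 highest libraries were those high in erythroid markers, its lowest was control replicate 1, and the groups overlapped. The log2 fold change was -0.33 (standard error, SE, 0.48; edgeR adjusted p = 0.849), and without the 3 libraries high in erythroid markers it was 0.27. Rplp1 and Rplp2, which form the tips of the stalk, had log2 fold changes of -0.04 and -0.22, with standard errors of 0.39 and 0.36. Rplp1 had a mean of 207 ± 48.7 CPM among controls versus 202 ± 93.1 in the mito-supplemented group (n = 4 per group, SD), and its sign turned in 5 alternatives, among them library size only (0.26), and also when several single libraries were left out.

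Of the 40S members, Rpsa, also known as the laminin receptor precursor, was among the most abundant. It had 313, 761, 808 and 559 CPM across controls 1 to 4, and 603, 374, 295 and 493 CPM across mito-supplemented libraries 1 to 4. The groups overlapped, with control replicate 1 near the low end. Its log2 fold change was -0.47 (SE 0.38; edgeR adjusted p = 0.748). Rps6, the substrate of the S6 kinases downstream of mTORC1, had a mean of 198 ± 55.1 CPM among controls versus 148 ± 24.0 in the mito-supplemented group (n = 4 per group, SD), a log2 fold change of -0.41 with a 95% interval from -1.11 to 0.29. Rps3, at the entry of the mRNA channel, had a log2 fold change of -0.37 (95% interval from -1.06 to 0.32), and Rps2 of -0.27 (95% interval from -1.31 to 0.77). Rps19, the gene most often mutated in Diamond-Blackfan anaemia, had a mean of 98.8 ± 21.4 CPM among controls versus 81.0 ± 29.7 in the mito-supplemented group (n = 4 per group, SD). Rps27a, which is made as a fusion with ubiquitin, had 89.3 ± 8.75 and 79.1 ± 24.8 CPM (SD, n = 4 each). Rps29 and Rps13 had log2 fold changes of -0.13 and 0.07, each smaller than its standard error of 0.36 and 0.31. The 95% interval of each of these 40S genes held 0.

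Of the 60S members, Rpl4 (chromosome 9, 64173375 to 64178666) had 759, 1016, 1264 and 863 CPM across controls 1 to 4, and 1260, 661, 830 and 1164 CPM across mito-supplemented libraries 1 to 4. The groups overlapped fully, and the log2 fold change was 0.004 with a 95% interval from -0.73 to 0.74. Rpl3, next to the peptidyl transferase centre, had 97.5, 329, 333 and 312 CPM across controls 1 to 4, and 303, 190, 220 and 291 CPM across mito-supplemented libraries 1 to 4. Control replicate 1 was thus far below the other libraries, and 36.0% of the gene's stretches were unique. The log2 fold change of Rpl3 was -0.09 (SE 0.41), with its sign turned in several alternatives. Rpl5 and Rpl11, which enter the ribosome with the 5S rRNA and, when free, bind MDM2, had log2 fold changes of -0.31 and -0.25, with standard errors of 0.29 for both. Rpl13a, which in immune cells can leave the ribosome to silence inflammatory mRNAs, had a mean of 51.9 ± 18.3 CPM among controls versus 40.6 ± 10.2 in the mito-supplemented group (n = 4 per group, SD). Rpl35, near the exit of the peptide tunnel, had 116, 114, 131 and 105 CPM across controls 1 to 4, and 126, 52.0, 48.8 and 84.5 CPM across mito-supplemented libraries 1 to 4. In all but mito-supplemented replicate 1 it was lower in the mito-supplemented group than in every control library. Its log2 fold change was -0.58 (SE 0.37; edgeR adjusted p = 0.705), and without mito-supplemented replicate 1 it was the single member at an unadjusted p value under 0.05 in either direction, against 14.1% of all genes in that fit.

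Groups that did not overlap in CPM were found for 2 of the 81 members (2.47%), both lower in mito-supplemented samples, against 2.03% of all genes tested in that direction. No member was higher without overlap, against 3.00% of all genes. The share of the members was thus near that of other genes in the lower direction and below it in the higher direction. Rpl32, named after its values were seen, had 209.9, 212, 230.1 and 227 CPM across controls 1 to 4, and 166, 127, 176 and 204 CPM across mito-supplemented libraries 1 to 4. Its log2 fold change was -0.38, with a 95% interval from -0.996 to 0.23. The other was Rpl7l1.

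Several ribosomal proteins have a paralogue that replaces or accompanies them in particular cells. Rpl7l1, the paralogue of Rpl7, had 21.5, 10.1, 9.89 and 19.9 CPM across controls 1 to 4, and 7.76, 6.44, 7.67 and 9.87 CPM across mito-supplemented libraries 1 to 4. Control replicates 1 and 4 were high, whereas control replicates 2 and 3 lay just above the highest mito-supplemented library. It had the lowest unadjusted p value of the members, with a log2 fold change of -0.95 (SE 0.46; edgeR adjusted p = 0.66). Rpl7 itself had a log2 fold change of -0.09 (SE 0.30). Rps4y2 had 36.8, 3.25, 6.01 and 18.0 CPM across controls 1 to 4, and 12.3, 5.06, 6.03 and 0.973 CPM across mito-supplemented libraries 1 to 4. Its level was highest in control replicate 1 and lowest in mito-supplemented replicate 4, which also had the highest and the lowest oocyte marker sum. Between these ends the orders differed. Control replicate 4, with an oocyte marker sum of 948 CPM, had 18.0 CPM of Rps4y2. Mito-supplemented replicate 3, with a sum of 1000 CPM, had 6.03 CPM of Rps4y2, near the 6.01 of control replicate 3, with a sum of 238 CPM. The log2 fold change was -1.39, the lowest of the members, with a 95% interval from -3.35 to 0.57. Without control replicate 1 it was -0.54 and without mito-supplemented replicate 1 it was -1.94, and Rps4x, its X-linked partner, had -0.18.

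Rpl10l is an intronless copy of the X-linked Rpl10 that is required in male meiosis, when the X chromosome is silenced. It had 312, 24, 2 and 8 counts across controls 1 to 4, and 101, 13, 24 and 7 counts across mito-supplemented libraries 1 to 4. Control replicate 1 stood far above the rest, and without it the log2 fold change of Rpl10l turned from -1.16 to 0.66. Of the counts on the pair, Rpl10l held 8.25% (95% Wilson interval 7.41% to 9.17%) in control replicate 1, 2.87% in mito-supplemented replicate 1 and 0.0523% to 1.11% in the other 6 libraries. Rpl10 differed little between the groups, at a mean of 180.5 ± 32.5 CPM among controls versus 174 ± 50.7 in the mito-supplemented group (n = 4 per group, SD). Rpl39l had 115 counts in control replicate 1, 38 in mito-supplemented replicate 3 and between 0 and 7 in the other 6 libraries. The 2 libraries with the most Rpl39l counts had the highest oocyte marker sums, of 4394 and 1000 CPM, but control replicate 4, with a sum of 948 CPM, had 0 counts. Whether oocyte content accounts for the levels of these paralogues was not tested.

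Rpl22l1 had the highest fold change of the members. It had 14.8, 20.2, 27.2 and 33.8 CPM across controls 1 to 4, and 30.1, 18.6, 25.8 and 75.9 CPM across mito-supplemented libraries 1 to 4. The difference rested on mito-supplemented replicate 4, while the other 3 mito-supplemented libraries lay within the control range. The log2 fold change was 0.65 (SE 0.50; edgeR adjusted p = 0.741) and 0.078 without mito-supplemented replicate 4, and Rpl22 had -0.22 (SE 0.37). Rpl22l1 held 22.9% of the counts of the pair in mito-supplemented replicate 4 (95% Wilson interval 21.8% to 24.1%) and 6.32% to 14.8% in the other 7 libraries. Rps27l, a p53-responsive paralogue of Rps27, had a mean of 16.5 ± 2.41 CPM among controls versus 17.6 ± 4.64 in the mito-supplemented group (n = 4 per group, SD), and Rps27 had 200.1 ± 41.2 and 174 ± 39.0 CPM. Rpl3l, known from heart and skeletal muscle, had 0, 4, 1 and 0 counts across controls 1 to 4, and 0, 0, 12 and 0 across mito-supplemented libraries 1 to 4.

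**Figure D5:**
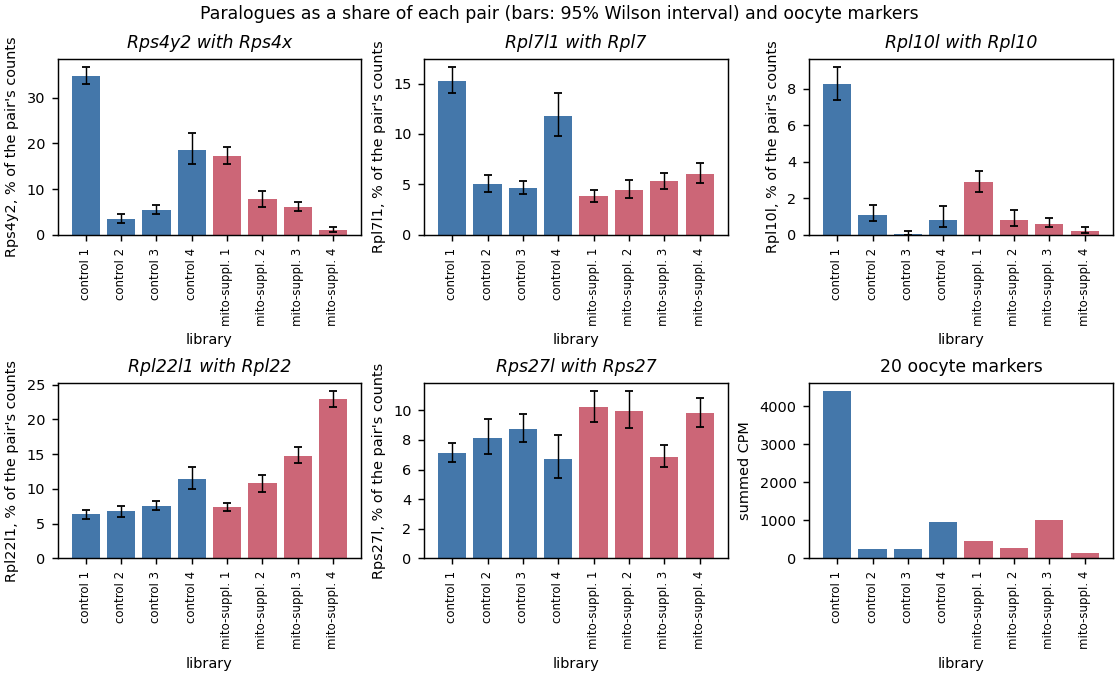
Each bar is a library, in blue for controls and red for mito-supplemented samples, and gives the counts on a paralogue as a percentage of the counts on the pair, with 95% Wilson intervals, or, in the plot of oocyte markers, the summed CPM of 20 oocyte markers. Control replicate 1 has the highest share of Rps4y2 (34.7%), Rpl7l1 (15.3%) and Rpl10l (8.25%) and the highest oocyte marker sum, whereas the share of Rpl22l1 is highest in mito-supplemented replicate 4 (22.9%).

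The balance between the subunits separated the groups in counts but not in the typical gene. Counts on 40S members divided by counts on 60S members came to 0.608, 0.605, 0.607 and 0.617 across controls 1 to 4, and to 0.564, 0.588, 0.575 and 0.586 across mito-supplemented libraries 1 to 4. All mito-supplemented libraries thus lay below all control libraries, at 0.578 ± 0.011 against 0.609 ± 0.0053 (n = 4 per group, SD). This ratio was examined after the values were seen and was not tested. The groups overlapped when either Rpsa or Rps23 was left out and stayed apart when any other single member was. The control mean minus the mito-supplemented mean was 0.0307 with all members, 0.0191 without Rpsa and 0.0227 without Rps23, so that most of the difference stayed. Rps23, a protein of the decoding centre named for this reason, made up 3.07%, 2.47%, 2.73% and 2.08% of member counts across controls 1 to 4, and 2.78%, 1.95%, 2.14% and 1.66% across mito-supplemented libraries 1 to 4. With each gene weighted equally, the mean log2 CPM of the 40S members minus that of the 60S members averaged -0.08 ± 0.05 among controls versus -0.14 ± 0.06 in the mito-supplemented group (n = 4 per group, SD), with overlap. The median log2 CPM of the 40S members minus that of the 60S members went the other way, at -0.32 ± 0.28 among controls versus -0.30 ± 0.14 in the mito-supplemented group (n = 4 per group, SD), also with overlap.

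Within the member counts, Rpl4 took 6.96%, 6.99%, 7.80% and 6.90% across controls 1 to 4, and 8.82%, 7.89%, 8.04% and 8.07% across mito-supplemented libraries 1 to 4. Its share was therefore higher in every mito-supplemented library, although its CPM did not differ. The same held for Rpl37, at a mean of 1.01% ± 0.027 among controls versus 1.14% ± 0.054 in the mito-supplemented group (n = 4 per group, SD); Rpl37 was named after its values were seen. These 2 were 2.47% of the members, against 3.34% of all genes tested when their counts were divided by the member counts in the same way. No member was lower without overlap on this scale, against 0.505% of all genes.

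The other genes of translation were examined as lists beside the members, and no list had a gene past an adjusted p value of 0.05 in edgeR's quasi-likelihood test. The 4 ribosomal protein genes outside the symbol rule had a median log2 fold change of -0.22, with Fau at -0.34 and Gnb2l1, the older symbol of Rack1, at -0.32. Of 33 initiation factors, 1 was lower and 0 higher at an unadjusted p value under 0.05, against 2.40% and 5.31% of all genes, with a median of -0.18. The lower gene was Eif3k, a peripheral subunit of the eIF3 complex, with a mean of 61.2 ± 6.07 CPM among controls versus 33.1 ± 6.93 in the mito-supplemented group (n = 4 per group, SD; edgeR adjusted p = 0.626). Eif4g2, the most abundant initiation factor, had a log2 fold change of 0.10 (SE 0.28). The 11 elongation and termination factors had a median of -0.14, with Eef2, which moves the ribosome along the mRNA, at -0.39 (SE 0.35). The 15 other mRNAs of the TOP class had a median of -0.05, with Pabpc1 at 0.36 (SE 0.66) and Vim at 1.02 (SE 0.53). With library size only, the median of all genes moved from -0.098 to 0.172. All 4 list medians turned with it, to 0.055 for the genes outside the rule and 0.11 for initiation. Elongation and termination came to 0.15 and the TOP list to 0.29. The median of the TOP list also turned with upper quartile scaling (0.017), with counts summed by label prefix (0.14) and without the 3 libraries high in erythroid markers (0.038). When single libraries were left out, the medians lay from -0.40 to -0.081 for the genes outside the rule, from -0.38 to -0.072 for initiation, from -0.20 to -0.016 for elongation and termination and from -0.12 to 0.032 for the TOP list. The log2 fold changes of single genes then lay from -0.45 to -0.22 for Fau, -0.45 to -0.13 for Gnb2l1, 0.044 to 0.195 for Eif4g2, -0.56 to -0.22 for Eef2, -0.64 to 0.63 for Pabpc1 and 0.73 to 1.67 for Vim.

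Among 14 genes of mTORC1 and its targets, 3 were lower and 0 higher at an unadjusted p value under 0.05, against 2.40% and 5.31% of all genes, with a median of -0.30. Tsc1, an inhibitor of the pathway, had 116, 116, 92.2 and 79.9 CPM across controls 1 to 4, and 61.8, 59.9, 52.0 and 66.4 CPM across mito-supplemented libraries 1 to 4. All mito-supplemented libraries lay below the controls, with a log2 fold change of -0.75 (SE 0.29; edgeR adjusted p = 0.626). The other 2 were Rptor, the scaffold of mTORC1, at -0.85, and Rps6kb2, a kinase of Rps6, at -1.44. The 3 genes act in both directions on the pathway, and Larp1, which binds TOP mRNAs, had -0.41 (SE 0.38), or -0.65 to -0.24 when single libraries were left out. Of 72 ribosome assembly factors tested, 4 were lower and 1 higher at an unadjusted p value under 0.05, against the same 2.40% and 5.31% of all genes, with a median of -0.30. The lower ones were Rrp12, Noc4l, Nhp2 and Dcaf13, with log2 fold changes of -1.30, -1.23, -1.33 and -1.08, and the higher one was Rrs1, with 1.70. All 4 lower genes were highest in control replicate 1, where the oocyte markers were highest too. The levels there were 24.7 CPM for Rrp12, 62.4 for Noc4l, 24.6 for Nhp2 and 81.2 for Dcaf13. Leaving that library out brought Noc4l to -0.79 and Dcaf13 to -0.54. Rrp12, however, lay from -1.47 to -1.06 when single libraries were left out. The part of oocyte content in the levels of these assembly factors was not tested. Ncl, the nucleolar protein nucleolin, was the most abundant factor and had a log2 fold change of -0.30 (SE 0.29), or -0.17 without mito-supplemented replicate 3. The 20 genes of RNA polymerase I had a median of -0.16, which was 0.23 without control replicate 1, and 0 genes at an unadjusted p value under 0.05, with Polr1a at 0.28 (SE 0.33), or 0.069 to 0.43 when single libraries were left out, and Polr2k at -1.50 (SE 0.88). The 75 tested genes of the mitochondrial ribosome had a median of -0.29, with 53 below 0 and 0 at an unadjusted p value under 0.05. The medians of 3 of these lists drew nearer to 0 without control replicate 1, at -0.13 for mTORC1, -0.135 for assembly, with 41 of 72 genes below 0, and -0.082 for the mitochondrial ribosome. The median of all genes also rose in that fit, from -0.098 to 0.038, so that part of these moves was shared by all genes. With library size only, where all genes had 0.172, the medians of these 3 lists were -0.12, -0.018 and -0.076. That of RNA polymerase I was then -0.024. Without the 3 libraries high in erythroid markers the median was -0.48 for mTORC1 and -0.28 for RNA polymerase I.

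Markers of the cell types were compared in the same way, and no marker passed an adjusted p value of 0.05 in edgeR's quasi-likelihood test or in limma-voom. In edgeR's likelihood ratio test, which the study used, 3 markers passed, Gpm6a (adjusted p = 1.06e-05), Upk1b (adjusted p = 0.00085) and Esam (adjusted p = 0.0123). The same 3 passed in DESeq2, together with Lgr5 (adjusted p = 0.034), Cldn15 (adjusted p = 0.039) and Amhr2 (adjusted p = 0.0417). Of these, Upk1b, Lgr5 and Cldn15 were named after their values were seen. Of 17 pregranulosa markers tested, 6 were higher and 0 lower at an unadjusted p value under 0.05, against 5.31% and 2.40% of all genes, with a median log2 fold change of 1.11 (1.77 without control replicate 4), Wt1 at 1.37 and Amhr2 at 1.94. Their sum was 305, 231, 329.5 and 1036 CPM across controls 1 to 4, and 616, 1538, 872 and 1495 CPM across mito-supplemented libraries 1 to 4, with Hsd17b1 or Amh at 0 in control replicate 2 and mito-supplemented replicates 1 and 2. Of 12 surface epithelium markers, 7 were higher on the same rule, with a median of 1.88 (3.16 without control replicate 4), Aldh1a1, the most abundant, at 0.86 and Gpm6a at 4.37. Their sum was 247, 205, 205 and 739 CPM across controls 1 to 4, and 619, 1371, 793 and 1093 CPM across mito-supplemented libraries 1 to 4. The 17 stroma markers had a median of 0.70 with Col3a1 at 1.15, and sums from 481 to 2872 CPM in controls and from 1141 to 3153 CPM in mito-supplemented samples; leaving out control replicate 4 gave a median of 1.61, and leaving out control replicate 1 gave 0.42. The 18 oocyte markers tested had a median of -1.65, all below 0, with Kit at -2.06 and Tdrd1 at -1.99. Without control replicate 1 the median of the oocyte markers turned to 0.21, with Kit at -0.54 and Tdrd1 at -0.57, so that the direction hung on that library. The 11 endothelial markers tested had a median of 0.85, with 8 above 0 and 3 below. Esam was at 3.33 and Kdr at 1.35, whereas Flt1 was at -0.47, Egfl7 at -0.29 and Tek at -0.003. The sums of the endothelial markers ran from 27.85 to 242 CPM. Kdr made up 13.7 of 49.2 CPM in control replicate 2 and 193 of 232 CPM in mito-supplemented replicate 2. Leaving out control replicate 4 gave a median of 1.48. Without mito-supplemented replicate 3 it was 0.07, with 5 of 10 genes below 0. The 9 smooth muscle markers had a median of 0.41, with Mylk at 0.27 and Lmod1 at 2.45, and sums from 60.2 to 607 CPM; the median turned to -0.17 without mito-supplemented replicate 4, whereas leaving out control replicate 4 gave 2.10. The 10 immune markers tested had a median of 0.64, with S100a9 at 0.83 and Csf1r at 1.26, but the median turned to -2.29 without mito-supplemented replicate 1, -1.72 with a replicate block, -0.76 in limma-voom and -0.50 without the 3 libraries high in erythroid markers. Their sum was 472, 501 and 1951 CPM in control replicates 2 and 3 and mito-supplemented replicate 1, and 14.5 to 27.8 CPM in the other 5 libraries, with C1qb at 0 in all 8. The 10 erythroid markers tested had a median of -0.72, with Spna1 at -1.15 and Tfrc at -1.05, and the median was 0.11 without control replicate 2, 0.37 without the 3 libraries high in erythroid markers and -5.71 without mito-supplemented replicate 1. Leaving out control replicate 4 gave 2.33 for Wt1, 2.01 for Col3a1, 1.30 for Aldh1a1, 2.88 for Kdr and 1.68 for Mylk, which was -0.20 without mito-supplemented replicate 4. Leaving out mito-supplemented replicate 1 gave -4.95 for S100a9, 0.78 for Csf1r, -6.01 for Spna1 and -3.52 for Tfrc, and leaving out control replicate 2 gave -0.25 for both Spna1 and Tfrc. The part of these cell types in the levels of the ribosomal protein genes was not tested.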

How the data were processed

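Primordial follicle RNA from 4 control and 4 mito-supplemented samples was sequenced as single reads of 75 bases. Per the submitters' processing notes and the study's methods, the authors trimmed the reads with Trim Galore 0.4.4, mapped them to GRCm38 with STAR 2.5.3a and counted them per gene with featureCounts. The table of raw counts by gene symbol was deposited. Strand setting, annotation release and how reads with several matches were handled could not be found in the sources used here, so that members sharing sequence with copies are uncertain.

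Counts were analysed with edgeR 4.0.16 in R 4.3.3, using TMM normalization, the default expression filter and a quasi-likelihood test between the groups, and p values were adjusted by Benjamini-Hochberg over all genes tested. Each standard error is the absolute log2 fold change divided by the root of F. The likelihood ratio test, DESeq2 1.42.0, limma-voom 3.58.1, other scalings and filters, a replicate block, sums by label prefix and leaving out each library were alternatives. The procedure was tested on simulated data. Exon lengths, positions and shared stretches are from GENCODE M21, to which all 84 members were matched, 2 by an older symbol. CPM values are TMM-normalized, and log2 CPM has a prior count of 2.

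The members named were fixed by role, as paralogue pairs, or as the 3 highest and 3 lowest in fold change and level per length and the 3 lowest in unadjusted p value, and from each other list the gene with the lowest unadjusted p value and the most abundant gene. A member that is part of all counts, sums and medians is not reported here by itself. The members and lists were chosen with earlier results of these data known.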

Additional observations from a re-analysis of the deposited data

Results flagged for a closer look

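Single libraries that stood apart from the other 3 of their group were sought by the gap to the nearest library as a share of the group's range. This was done for the log2 CPM of each tested member, for the share of counts and for the list sums, in 194 groups of 4 libraries. A library passed Dixon's limit for 4 values in 14, of which 13 are given here, and since chance gives about 1 in 20 groups, about 9.7 would be expected.

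In control replicate 1, Rpl3 was at 6.61 log2 CPM against 8.29 to 8.38 in the other controls and Rpl21 at 7.72 against 8.19 to 8.27. In control replicate 4, Rpl10a was at 5.58 against 6.57 to 6.71 and Rps28 at 5.48 against 6.04 to 6.08. Rps27a in control replicate 3 was at 6.68 against 6.40 to 6.44.

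In mito-supplemented replicate 2, Rpl17 was at 6.78 log2 CPM against 7.50 to 7.64 in the rest of its group and Rpl35a at 4.53 against 5.32 to 5.44. Rpl36a in mito-supplemented replicate 4 was at 7.01 against 6.13 to 6.22.

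On the log2 scale of 1 plus the summed CPM, mito-supplemented replicate 1 was at 12.24 for the assembly factors against 11.93 to 11.96 in its group, at 6.79 for the endothelial markers against 7.75 to 7.87, at 10.93 for the immune markers against 3.96 to 4.72 and at 13.31 for the erythroid markers against 6.51 to 7.60. Control replicate 4 was at 9.53 for the surface epithelium markers against 7.68 to 7.95.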

How the results depend on the processing

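The alternatives were listed before the files were read, except that without the 3 libraries high in erythroid markers (control replicates 2 and 3 and mito-supplemented replicate 1), which was chosen after seeing the data. The count of genes past an adjusted p value of 0.05 was 0 in edgeR's quasi-likelihood test, 58 with the likelihood ratio test and 141 with DESeq2, and 0 in the other 16 alternatives. The count of members at an unadjusted p value under 0.05 was 0, became 1 with DESeq2 and 2 without the 3 libraries high in erythroid markers (Rpl10l and Rps4y2), and lay between 0 and 1 when single libraries were left out. Of all genes, 10.8% were so with DESeq2, 10.8% without the 3 libraries and 14.1% without mito-supplemented replicate 1, where the count of members was 1. The members' median of -0.18 became 0.116 with library size only and -0.000196 with counts summed by label prefix, and lay between -0.282 and -0.054 when single libraries were left out. The difference in the share of counts, -0.19 percentage points, became 0.095 as a share of all counts and 0.008 without the 3 libraries, and lay between -0.408 and -0.032 when single libraries were left out.

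Deviations from the group mean in libraries of equal replicate number correlated at -0.244, -0.191, -0.334 and 0.222. These values had either sign and are too few to decide, so that a pairing by number was neither shown nor excluded. Fitting a replicate block called 0 genes and 0 members, and the members' median was -0.204. No call of a member was changed by the block.

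Of 55 named genes fitted, 25 changed sign in an alternative, none of them past an adjusted p value of 0.05 there. Library size only raised the median of all genes from -0.098 to 0.172, so turns under that scaling alone say little about single genes. With library size only the log2 fold changes were 0.258 for Rplp1, 0.0251 for Rplp2, 0.173 for Rps2, 0.0284 for Rps19, 0.0973 for Rps27a, 0.331 for Rpl3, 0.221 for Rpl7, 0.29 for Rpl10, 0.0553 for Rpl22, 0.151 for Rps4x, 0.0725 for Rps27, 0.163 for Rps29 and 0.00148 for Ncl. Without the 3 libraries they were 0.274 for Rplp0, 0.219 for Rplp1, 0.203 for Rpl3, 0.0291 for Rpl13a, 0.103 for Rpl7, 0.101 for Rpl10, 0.165 for Rps4x, 0.101 for Rps29, 0.106 for Gnb2l1, 0.331 for Spna1, 0.558 for Tfrc and -0.0862 for Mylk. With counts summed by label prefix they were 0.271 for Rplp1, 0.318 for Rps2, 0.13 for Rpl3, 0.177 for Rpl10 and 0.039 for Rps29. With the replicate block they were 0.00532 for Rpl3, -0.0175 for Rpl4, -0.0381 for Pabpc1 and -2.69 for S100a9. With limma-voom they were 0.117 for Rpl3, -0.0147 for Rpl4 and -1.36 for S100a9, and with DESeq2 -0.0111 for Rpl4. Rplp1 was at 0.0116 and Rpl10 at 0.0165 with upper quartile, and Rplp1 at 0.00371 with at least 1 count in any library. Why these signs turned was not tested.

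When single libraries were left out, the log2 fold change ranged from -0.116 to 0.156 for Rpl4, from -2.25 to 0.655 for Rpl10l, from -0.2 to 1.68 for Mylk, from -0.314 to 0.189 for Rplp1, from -0.349 to 0.027 for Rpl3, from -0.196 to 0.026 for Rpl7, from -0.206 to 0.112 for Rpl10, from -0.636 to 0.627 for Pabpc1, from -4.95 to 1.5 for S100a9, from -0.285 to 0.0407 for Rps29, from -0.0712 to 0.224 for Rps27l and from -0.096 to 0.18 for Rps13.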

Other observations

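The profile of the members within a library, as log2 CPM over 81 genes, correlated between libraries at r = 0.904 to 0.981 among the 7 libraries other than control replicate 1. Control replicate 1 correlated with these at 0.789 to 0.915. Without the paralogues the ranges were 0.907 to 0.962 and 0.834 to 0.906. Genes within a library are not independent, so these r values describe and do not test.

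Relative to the median member of its library, and against the median of the other 7 libraries, 17 values of a member lay more than 1 log2 unit away. Of these, 5 were in control replicate 1, 4 each in control replicate 4 and mito-supplemented replicate 4, 2 in control replicate 3 and 1 each in control replicate 2 and mito-supplemented replicate 1. Rpl26, named after its values were seen, was at 24.8 CPM in control replicate 3 and between 59.2 and 136 CPM in the other libraries, and lay 2.29 below on this scale. Rps18 and Rpl29 lay 1.18 and 1.08 above in control replicate 4, and Rps14 lay 1.18 above in control replicate 1 and -1.09 from the others in mito-supplemented replicate 4.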
